A study of Mus musculus with 12 samples.

Results

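The comparison described here sets 6 libraries from mice given GR159897, which blocks the neurokinin-2 receptor, against 6 libraries from mice given vehicle, pooled over a saline and a DNBS enema. These are 6 of the study's 12 libraries, chosen by the drug named in each library's label. All mice were C57BL/6 and carried Sox10::CreERT2+/- and Rpl22tm1.1Psam/J, so that tamoxifen switched on a tagged ribosomal protein in cells with an active Sox10 driver, which marks glia of the gut wall and also other cells of the neural crest line. Ribosome-bound RNA was pulled down from the distal colon's myenteric plexus 48 hours after the enema. DNBS_GR159897 mice had an enema of 5 mg DNBS in 50% ethanol and GR159897 at 0.5 mg/kg in 0.1% DMSO. Saline_GR159897 mice had a saline enema and the same drug. DNBS_Vehicle mice had the DNBS enema and 0.1% DMSO, and Saline_Vehicle mice had saline and 0.1% DMSO, with 3 libraries in each of the 4 groups. Injections were given daily over 3 days from 24 hours before the enema, and every mouse had tamoxifen chow, so DMSO, tamoxifen and the Cre driver are common to both arms. The antagonist arm held 3 females and 3 males and the vehicle arm 2 females and 4 males. The labels give no age, litter or batch, and the p-values measure the spread between these samples.

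Tachykinins are short peptides released by enteric neurons, and substance P and neurokinin A are both cut from the product of Tac1. The neurokinin-2 receptor, encoded by Tacr2, prefers neurokinin A, couples mainly to Gq and calcium release, and is known in the colon for contraction of smooth muscle and for expression on enteric neurons. DNBS is a hapten that causes colitis within days. Enteric glia surround the neurons of the myenteric plexus and take up a reactive state in colitis. The question set by the labels is what blocking this receptor does to the RNA that glial ribosomes carry.

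The unit throughout is FPKM, the fragments per kilobase of transcript scaled by the authors to mapped fragments. The depth of each library is unknown, so no counting interval is given. Between 10325 and 11157 genes reached 1 FPKM per library. DNBS_GR159897 replicate 1 stood apart: loci with an annotated transcript held 22.6% of its summed FPKM, against 53.8% to 95.1% in the other 11. The glial marker S100b was at 1.17 FPKM there, and the epithelial marker Epcam at 183 FPKM, against at most 4.86 FPKM elsewhere. The fits were therefore run with 12 libraries and again with 11, leaving that library out, and a value without a number of libraries is from the fit with 12. A value listed at 0 is not read as absence.

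No gene passed the test for a difference between antagonist and vehicle averaged over the enemas. With all 12 libraries 0 of 12778 genes (0%) had an adjusted p under 0.05 in limma with the enema as a term, and the smallest adjusted p was 0.882. An unadjusted p under 0.05 was reached by 524 genes (4.1%), of which 153 (1.2%) were higher and 371 (2.9%) lower with the antagonist. Without DNBS_GR159897 replicate 1 the count was again 0 (0%), the smallest adjusted p was 0.9995, and 432 genes (3.38%) had an unadjusted p under 0.05, 177 (1.39%) higher and 255 (2%) lower. In the same additive fits the enema term was called for 1306 genes (10.2%) with 12 libraries and for 1415 (11.1%) with 11.

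The differences were small next to their errors, and they leaned low in a way that moved with 1 library. The median log2 difference of FPKM + 1 over all genes, antagonist minus vehicle, was −0.12 with 12 libraries and −0.04 with 11. Below 0 lay 61.9% of genes with 12 libraries and 55.3% with 11, and above 0 lay 38.1% and 44.7%. The median standard error (SE) of a gene's difference was 0.34 with 12 libraries and 0.31 with 11. A difference beyond 1 on the log2 scale in either direction was seen for 463 genes (3.62%) with 12 libraries and 293 (2.29%) with 11. Rescaling each library so that its annotated loci have the same sum put the median over all genes at 0.05, and rescaling to the upper quartile put it at 0.01. Group medians below are read against the median of −0.12.

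The genes nearest the threshold are described first, by a rule that took the smallest p in each direction with 12 and with 11 libraries, leaving out predicted genes, pseudogenes and rows that merge genes. The rule named 27 genes, 15 higher and 12 lower, and all 27 had an adjusted p of 0.882 with 12 libraries and of 0.9995 with 11. They were picked for their p, so their values are a description. Of the 27, 4 (AA474408, Ufsp1, Rassf5 and RP24-98A23.2) reached 1 FPKM in antagonist libraries only and 1 (RP23-48A24.3) in vehicle libraries only, so the filter on low values itself favours a difference in them. The same holds in part for genes such as Spata2 and Cxcl5, whose vehicle libraries alone would not have met that filter. All 27 were matched to a single gene. Exons of 12 overlap those of a gene on the opposite strand and those of 1 (Zfp934) a gene on the same strand, and reads of overlapping genes cannot be told apart by strand here.

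Among genes higher with the antagonist, Spata2 (GRCm38 chr2:167481133-167492887, minus strand) had the smallest p of those named. It encodes an adaptor that brings the deubiquitinase Cyld to the tumour necrosis factor receptor complex. Spata2 was at 3.61, 5.91 and 3.47 FPKM in Saline_GR159897 and at 2.16, 2.79 and 3.66 FPKM in DNBS_GR159897, against 2.40, 0.08 and 2.31 FPKM in Saline_Vehicle and at 0.01, 0.15 and 0.01 FPKM in DNBS_Vehicle. The antagonist libraries were above every vehicle library in 5 of 6 cases, and all 3 DNBS_Vehicle libraries lay near 0. The log2 difference was 1.52 ± 0.30 (SE, unadjusted p = 0.000206) with 12 libraries and 1.54 ± 0.32 with 11. Exons of Spata2 overlap a gene on the opposite strand.

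AA474408 (chr7:110057987-110061325, minus strand), a locus to which no role is given here, came next among the named genes. It was at 0.29, 0.70 and 2.30 FPKM in Saline_GR159897 and at 2.28, 0.90 and 1.43 FPKM in DNBS_GR159897. In vehicle it was listed at 0 in 5 libraries and at 0.14 FPKM in DNBS_Vehicle replicate 2. The arms did not overlap, although the levels were low in both, and the log2 difference of FPKM + 1 was 1.098 ± 0.25 with 12 libraries and 0.99 ± 0.25 with 11. The gene passed the filter through antagonist libraries alone, which favours such a separation.

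Fam13b, which encodes a protein with a RhoGAP domain, was at 3.88, 4.43 and 4.21 FPKM in Saline_GR159897 and at 10.3, 7.21 and 2.30 FPKM in DNBS_GR159897. In vehicle it was at 1.51, 1.60 and 2.64 FPKM with saline and 1.16, 0.63 and 2.07 FPKM with DNBS. Only DNBS_GR159897 replicate 3 came below the highest vehicle value, and the log2 difference was 1.23 ± 0.32 with 12 libraries and 1.02 ± 0.28 with 11.

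Cxcl5, a chemokine that attracts neutrophils, and Ufsp1, a protease of the ubiquitin-like protein Ufm1, came next among the named genes on the higher side. Cxcl5 was at 0, 0.05 and 1.11 FPKM in Saline_GR159897 and at 6.42, 7.83 and 10.5 FPKM in DNBS_GR159897, against 0 in each Saline_Vehicle library and 0.75, 0.05 and 1.25 FPKM in DNBS_Vehicle. The averaged log2 difference of 1.44 ± 0.39 joins 0.38 in saline mice and 2.50 in DNBS mice, and the test of that gap gave an unadjusted p of 0.00178 and an adjusted p of 0.957. Ufsp1 was at 10.2 FPKM in Saline_GR159897 replicate 1, listed at 0 in the other two of that group, and at 3.64, 7.42 and 8.08 FPKM in DNBS_GR159897. It was listed at 0 in all 6 vehicle libraries, so no fold is given.

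The other genes on the higher side were at a few FPKM at most in vehicle. Daglb, a lipase that makes the endocannabinoid 2-arachidonoylglycerol, had a median of 1.83 FPKM (1.18 to 3.48) with the antagonist and 0.31 FPKM (0.03 to 2.00) with vehicle. Cpeb2, which binds polyadenylation elements of mRNA, had a median of 2.06 FPKM (0.87 to 2.90) with the antagonist and 0.76 FPKM (0.55 to 1.17) with vehicle. Kdm2a, a histone demethylase, had 2.20 FPKM (0.79 to 3.63) with the antagonist and 0.955 FPKM (0.52 to 1.58) with vehicle. These arms overlapped, by 1 antagonist library for Cpeb2 and Kdm2a and by 4 for Daglb.

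Zfp934, Setd4, Fuk and Rassf5 had log2 differences between 0.64 and 1.05 with 12 libraries. Fuk, the fucose kinase of the salvage route to GDP-fucose, had the narrowest spread of these: 1.15 to 2.26 FPKM with the antagonist against 0.13 to 1.31 FPKM with vehicle. Setd4, a SET domain methyltransferase, reached 12.2 FPKM in DNBS_GR159897 replicate 1, and its log2 difference was 1.05 with that library and 0.74 without it. Rcsd1, RP24-98A23.2 and Dus2 were named with 11 libraries only. Dus2, which makes dihydrouridine in transfer RNA, had a log2 difference of 0.80 ± 0.23 there, and its 5 antagonist libraries, at 3.44 to 4.53 FPKM, all lay above the 6 vehicle libraries, at 1.01 to 3.34 FPKM.

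On the lower side Meox2 and Bnip3 had the smallest p of those named. Bnip3 encodes a mitochondrial outer membrane protein that recruits the autophagy machinery to mitochondria, and it is a well-known target of the hypoxia-inducible factors. It was at 19.6, 9.14 and 41.5 FPKM in Saline_GR159897 and at 4.71, 3.72 and 14.45 FPKM in DNBS_GR159897, against 67.6, 90.3 and 54.2 FPKM in Saline_Vehicle and at 37.2, 28.2 and 26.0 FPKM in DNBS_Vehicle. Within each enema every antagonist library lay below every vehicle library, as it did for 4.18% of genes in saline mice and 6.89% in DNBS mice, and across enemas only Saline_GR159897 replicate 3 came above the lowest vehicle value. The level averaged 15.5 ± 14.1 FPKM with the antagonist and 50.6 ± 25.2 FPKM with vehicle (SD, n = 6 each). The log2 difference was −1.91 ± 0.40 (unadjusted p = 0.000323) with 12 libraries and −1.81 ± 0.39 (unadjusted p = 0.0005) with 11, at −1.76 in saline mice and −2.06 in DNBS mice.

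Bnip3 lies at chr7:138890836-138909519 on the minus strand (GRCm38). The 250 bases before its RefSeq start (GRCm38.p6, chr7:138909507-138909756, minus strand) are shown because the gene is the member of the hypoxia list nearest the threshold and its promoter holds the core letters of a hypoxia response element. The capitals mark CACGTG, in which ACGTG on one strand and on the other overlap, 107 and 108 bases before the start.
Bnip3: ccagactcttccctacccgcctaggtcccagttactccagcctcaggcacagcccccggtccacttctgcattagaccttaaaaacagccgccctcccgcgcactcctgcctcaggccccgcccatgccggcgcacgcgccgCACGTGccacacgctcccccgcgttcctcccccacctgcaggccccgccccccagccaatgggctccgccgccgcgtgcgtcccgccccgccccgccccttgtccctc
ACGTG was searched on both strands and is found in 4998 of 27025 promoter windows of the same length (18.5%), and in those of 10 of the 17 hypoxia and glycolysis genes past the filter (58.8%). The 27025 windows are those of all genes and the 17 only of genes past the filter, so these shares are not of like sets. A match is a description of letters, and binding was not measured.

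Meox2 (chr12:37108540-37179534, plus strand), a homeobox factor of mesodermal and vascular cells, was at 1.82, 2.00 and 1.81 FPKM in Saline_GR159897 and at 0, 0.55 and 0 FPKM in DNBS_GR159897. In vehicle it was at 3.93, 4.54 and 5.85 FPKM with saline and 1.86, 5.74 and 1.94 FPKM with DNBS. The arms overlapped by Saline_GR159897 replicate 2 alone, and the log2 difference was −1.36 ± 0.27 (unadjusted p = 0.000218) with 12 libraries and −1.27 ± 0.28 with 11.

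Kitl encodes stem cell factor, the ligand of the receptor Kit on interstitial cells of Cajal and mast cells. It was at 2.55, 1.55 and 0.64 FPKM in Saline_GR159897 and at 1.77, 2.89 and 6.68 FPKM in DNBS_GR159897, against 5.65, 8.62 and 4.41 FPKM in Saline_Vehicle and at 6.97, 13.1 and 6.55 FPKM in DNBS_Vehicle. DNBS_GR159897 replicate 3 was level with the vehicle libraries and the other 5 were below all of them (−1.32 ± 0.32 with 12 libraries, −1.19 ± 0.32 with 11). Kit itself had a log2 difference of 0.03 ± 0.31.

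Kcna2, a voltage-gated potassium channel subunit of axons, was at 2.46, 19.0 and 0.74 FPKM in Saline_GR159897 and at 0.17, 0.34 and 4.53 FPKM in DNBS_GR159897. In vehicle it was at 16.0, 17.1 and 20.9 FPKM with saline and 22.6, 20.6 and 5.16 FPKM with DNBS. Saline_GR159897 replicate 2 was at the vehicle level and the other 5 antagonist libraries were below all vehicle libraries, for a log2 difference of −2.38 ± 0.59 with 12 libraries. With 11 it was −2.15 ± 0.62.

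Rab1a and Rac1, both small GTPases, were also named on the lower side. Rab1a, which acts in transport between the endoplasmic reticulum and the Golgi, ranged from 3.69 to 28.6 FPKM with the antagonist (median 8.66) and from 26.0 to 39.5 FPKM with vehicle (median 36.1). Rac1, which drives actin remodelling, was at 131, 68.4 and 13.9 FPKM in Saline_GR159897 and at 7.83, 7.84 and 9.73 FPKM in DNBS_GR159897, against 102, 86.7 and 107 FPKM in Saline_Vehicle and at 62.0, 75.8 and 73.7 FPKM in DNBS_Vehicle. All 3 DNBS_GR159897 libraries and 1 of the 3 Saline_GR159897 libraries were below every vehicle library for Rac1, and Saline_GR159897 replicate 1 was above all of them. Rac1 (chr5:143503634-143528036) overlaps Daglb (chr5:143464584-143505942) on the opposite strand, and these 2 genes differed in opposite directions, by −1.93 ± 0.52 and 0.94 ± 0.29 on the log2 scale.

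Hnmt, the enzyme that inactivates histamine inside cells, was at 14.5, 11.01 and 2.38 FPKM in Saline_GR159897 and at 0.19, 0.53 and 1.18 FPKM in DNBS_GR159897, against 12.7, 16.5 and 19.7 FPKM in Saline_Vehicle and at 5.66, 7.0 and 3.02 FPKM in DNBS_Vehicle. The DNBS libraries of the arms did not overlap, as for 6.89% of genes lower with the antagonist in DNBS mice, and the saline libraries did. Tmem109, an ion channel protein of the endoplasmic reticulum, ranged from 0.38 to 13.5 FPKM with the antagonist and from 7.56 to 30.8 FPKM with vehicle. Lysmd4, Lrrc40, Gins1 (a subunit of the replicative helicase) and RP23-48A24.3 lay at 2.30 FPKM or less in every antagonist library, with log2 differences between −1.06 and −0.77.

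**Figure D1:**
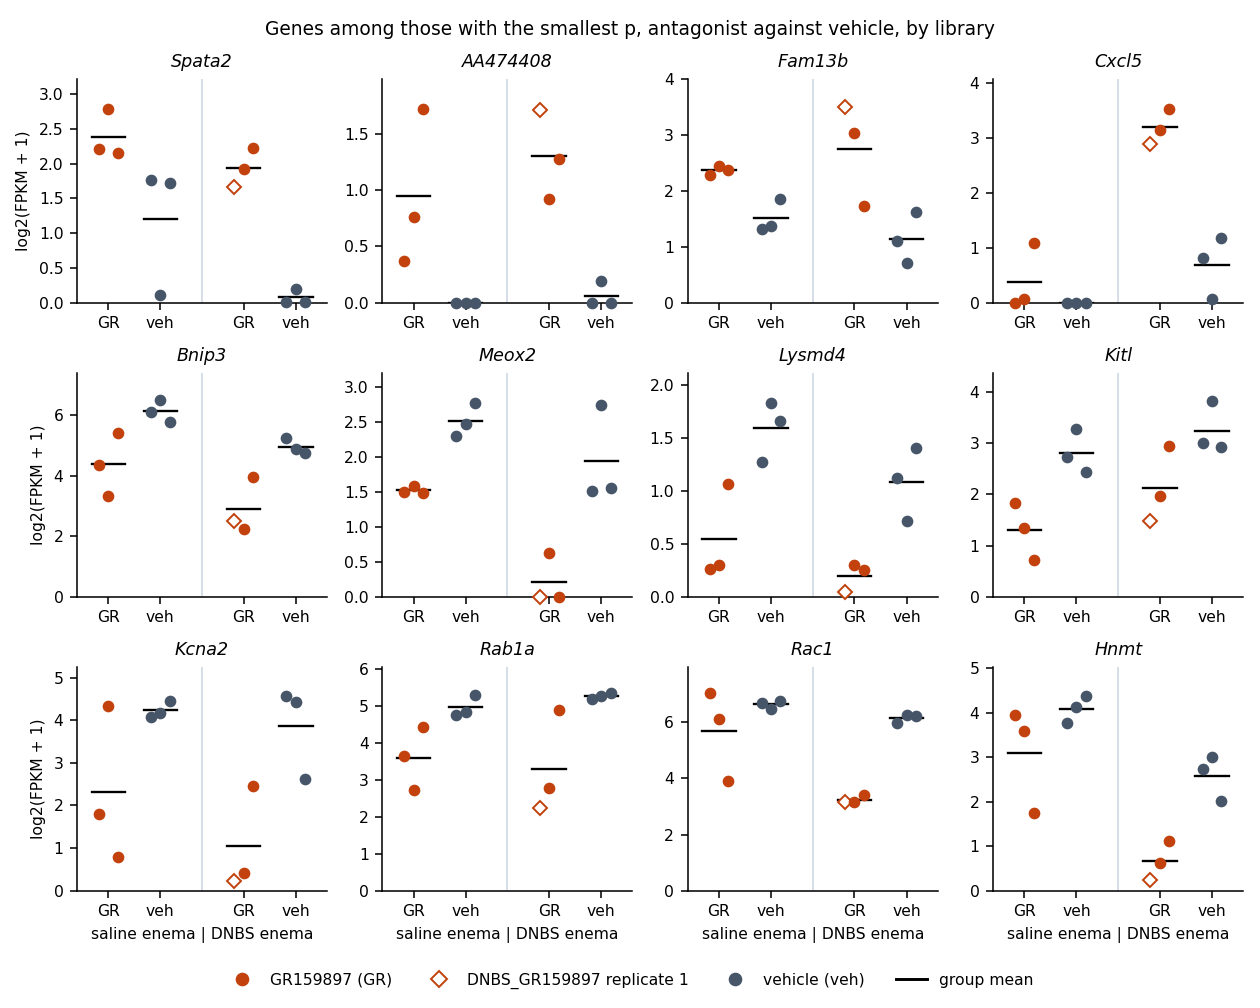
Expression of 12 of the named genes in each library as log2(FPKM + 1), with saline mice left and DNBS mice right in each panel, antagonist (GR) and vehicle (veh) under each enema, and a line at the mean of 3 libraries. AA474408 shows no overlap between the arms, while for Kcna2 and Rac1 single antagonist libraries sit at the level of vehicle.

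A complete separation of the 6 antagonist from the 6 vehicle libraries was rare. It was seen with the antagonist above vehicle for 2 of 12778 genes (0.0157%), AA474408 and Ascc2, and with the antagonist below vehicle for 6 (0.047%), RP23-48A24.3, Tmem251, Ap3s1, Ddx3x, Atp6v1d and Ube2q1. Except where the rule above names them, these genes were chosen after their values were seen. Ascc2, a subunit of a complex that splits stalled ribosomes, was at 2.62 to 4.63 FPKM with the antagonist and 1.3 to 2.55 FPKM with vehicle.

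Among the 6 lower genes, Tmem251, needed for sorting of lysosomal enzymes, was at 0.79 to 9.20 FPKM with the antagonist and 9.88 to 16.1 FPKM with vehicle. Ap3s1, a subunit of an adaptor complex that sorts proteins to lysosomes, was at 4.66 to 27.6 FPKM with the antagonist and 29.4 to 50.4 FPKM with vehicle. Atp6v1d, a subunit of the proton pump that acidifies lysosomes, was at 6.45 to 19.9 FPKM with the antagonist and 21.1 to 29.2 FPKM with vehicle. The gaps between the arms were narrow: the highest antagonist and lowest vehicle values of Atp6v1d were 19.85 and 21.11 FPKM. Ddx3x, an RNA helicase encoded on the X chromosome, was at 18.1 to 47.9 FPKM with the antagonist and 48.0 to 89.5 FPKM with vehicle, in arms that differ by 1 female. Ube2q1, a ubiquitin-conjugating enzyme, was at 4.39 to 7.12 FPKM with the antagonist and 7.43 to 10.5 FPKM with vehicle. With 11 libraries the separation was seen for 8 genes above (0.0626%) and 7 below (0.0548%), these 7 being the same 6 and Ercc8.

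The averaged difference can only describe both enemas if the differences within them are alike, and across genes they were close to unrelated. The within-saline and within-DNBS differences share no library. Over 12777 genes their Pearson correlation was 0.02 and their Spearman correlation 0.05 with 12 libraries, and 0.04 and 0.07 with 11, given as a description because genes are not independent. The same sign was found for 52.8% of genes with 12 libraries and with 11. With 3 libraries per group the errors of these differences also lower the correlation, so it cannot tell whether the enemas differ.

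An unadjusted p under 0.05 was reached by 217 genes in saline mice (1.7%), by 1039 in DNBS mice (8.13%) and by 26 in both, which is 12.0% of the saline genes and 2.50% of the DNBS genes. Of these 26, 2 were higher in both (Spata2 and AA474408) and 14 lower in both, among them Bnip3, Meox2, Kitl, Kcna2, Lrrc40, Lysmd4 and the transcription factor gene Sp4. With 11 libraries 290 genes passed in saline mice (2.27%), 580 in DNBS mice (4.54%) and 26 in both, 8.97% of the saline genes and 4.48% of the DNBS genes, with 5 higher in both and 9 lower in both. The 27 named genes all had the same sign in saline and in DNBS mice, which their choice by the averaged difference favours. Of the 27 genes 1 (Cxcl5) had an unadjusted interaction p under 0.05, and the lowest adjusted interaction p was 0.957.

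**Figure D2:**
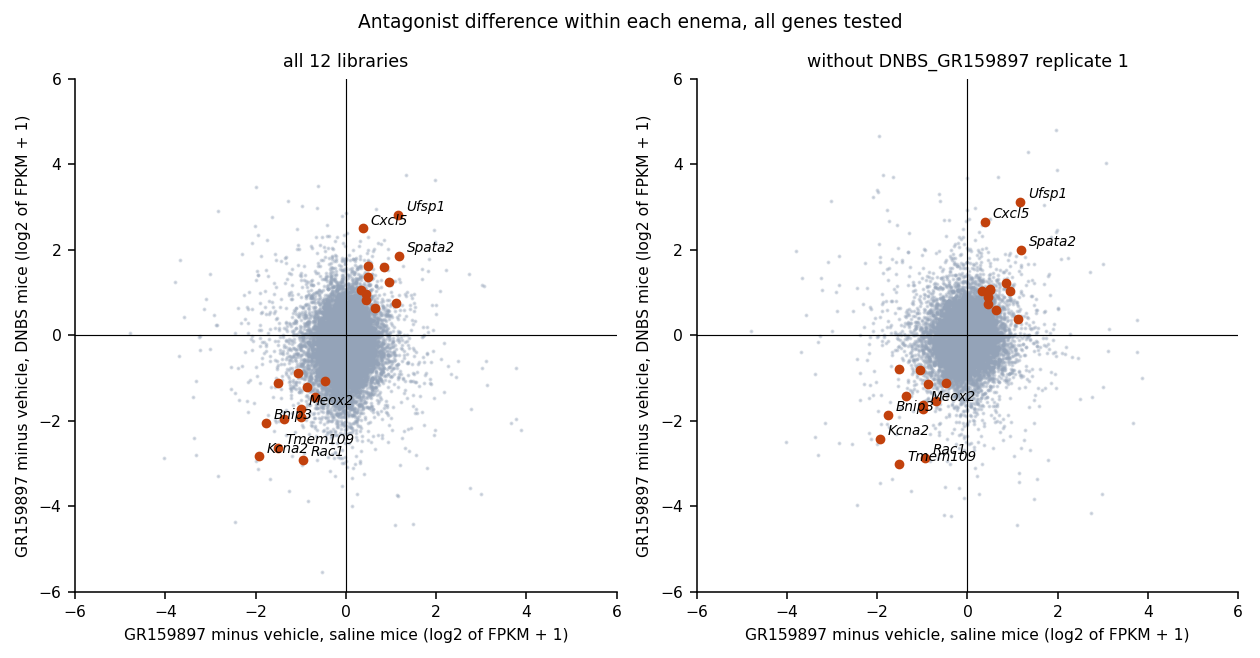
Antagonist minus vehicle difference in saline mice (x axis) against that in DNBS mice (y axis), log2 of FPKM + 1, for the genes tested (grey) and those named with 12 libraries (orange), with 12 libraries left and 11 right. The grey cloud shows no slant, with a Pearson correlation of 0.02 left and 0.04 right, and the named genes lie in its lower left and upper right.

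Another 2 genes passed the threshold in 1 enema when DNBS_GR159897 replicate 1 was left out, and both are named after that was seen. Gas1, a membrane protein named for growth arrest, was at 1.35, 10.9 and 12.7 FPKM in DNBS_GR159897 and at 0 in the 9 libraries of the other groups, and a fold cannot be given. With 11 libraries and a coefficient for each group it was the 1 gene (0.00783%) past the threshold within DNBS mice, for the interaction and for the average of the enemas, and in the additive fit its adjusted p was 0.9995. Gas1 passed the filter on low values through DNBS_GR159897 alone and has no spread in the other groups, so that call is tied to how the gene entered the test and is given as a description. Tmem167b, a small membrane protein of the secretory pathway, was at 0.68, 0.13 and 0.54 FPKM in Saline_GR159897, against 9.36, 9.87 and 12.5 FPKM in Saline_Vehicle. In DNBS mice it was at 4.23, 12.3 and 10.4 FPKM with the antagonist and 11.6, 11.8 and 8.53 FPKM with vehicle. Its log2 difference in saline mice was −3.01 ± 0.31 (adjusted p = 0.00814, 0.00783% of genes called) with 11 libraries, and its adjusted p was 0.0635 with 12. The interaction of Tmem167b had an adjusted p of 0.0861 with 11 libraries and 0.765 with 12. Exons of both genes overlap a gene on the opposite strand.

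The tachykinin genes themselves showed no difference between the arms that passed the test. Of 9 genes on the list 6 passed the filter on low values, 0 were called in either direction, and 5 had a log2 difference below 0. Their median was −0.30 with 12 libraries, −0.03 with 11 and 0.04 with the annotated share as a term. With equal annotated sums it was −0.31, and at the same upper quartile −0.18. The peptide precursor Tac1 was the most abundant: 10.98, 23.0 and 21.0 FPKM in Saline_GR159897 and at 10.85, 53.9 and 45.6 FPKM in DNBS_GR159897, against 18.4, 29.6 and 23.7 FPKM in Saline_Vehicle and at 48.1, 11.5 and 76.1 FPKM in DNBS_Vehicle. The arms overlapped fully, with a log2 difference of −0.31 ± 0.49 with 12 libraries and −0.010 ± 0.43 with 11. Tac2, the precursor of neurokinin B, was at 1.75 FPKM or less with the antagonist and at 4.68 FPKM or less with vehicle (−0.33 ± 0.38 with 12 libraries and −0.14 ± 0.38 with 11).

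Tacr2, the target of the drug, was at 0.30, 1.23 and 2.39 FPKM in Saline_GR159897 and at 0.08, 2.05 and 1.95 FPKM in DNBS_GR159897, against 0.96, 2.50 and 0.54 FPKM in Saline_Vehicle and at 0.53, 7.22 and 1.47 FPKM in DNBS_Vehicle. The arms overlapped in both enemas, and the log2 difference was −0.30 ± 0.43 with 12 libraries and −0.05 ± 0.41 with 11, at an adjusted p of 0.910 and 0.9995. The drug blocks the receptor protein, so the level of this RNA does not check the labels.

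Tacr1, the receptor that prefers substance P, was at 0.12, 1.75 and 1.56 FPKM in Saline_GR159897 and at 0.38, 2.38 and 2.22 FPKM in DNBS_GR159897, against 0.60, 0.74 and 0.34 FPKM in Saline_Vehicle and at 1.08, 1.21 and 1.32 FPKM in DNBS_Vehicle. In each enema 2 antagonist libraries were above and 1 was below all 3 vehicle libraries (0.26 ± 0.29 with 12 libraries, 0.46 ± 0.25 with 11). Tacr3, the neurokinin B receptor, differed more between enemas than between arms: 4.33 to 9.69 FPKM in Saline_GR159897 and at 0 to 1.25 FPKM in DNBS_GR159897, against 4.93 to 6.58 FPKM in Saline_Vehicle and at 0.18 to 2.08 FPKM in DNBS_Vehicle. Ece1, an enzyme that degrades substance P in endosomes, had a log2 difference of −0.52 ± 0.32 (unadjusted p = 0.123).

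**Figure D3:**
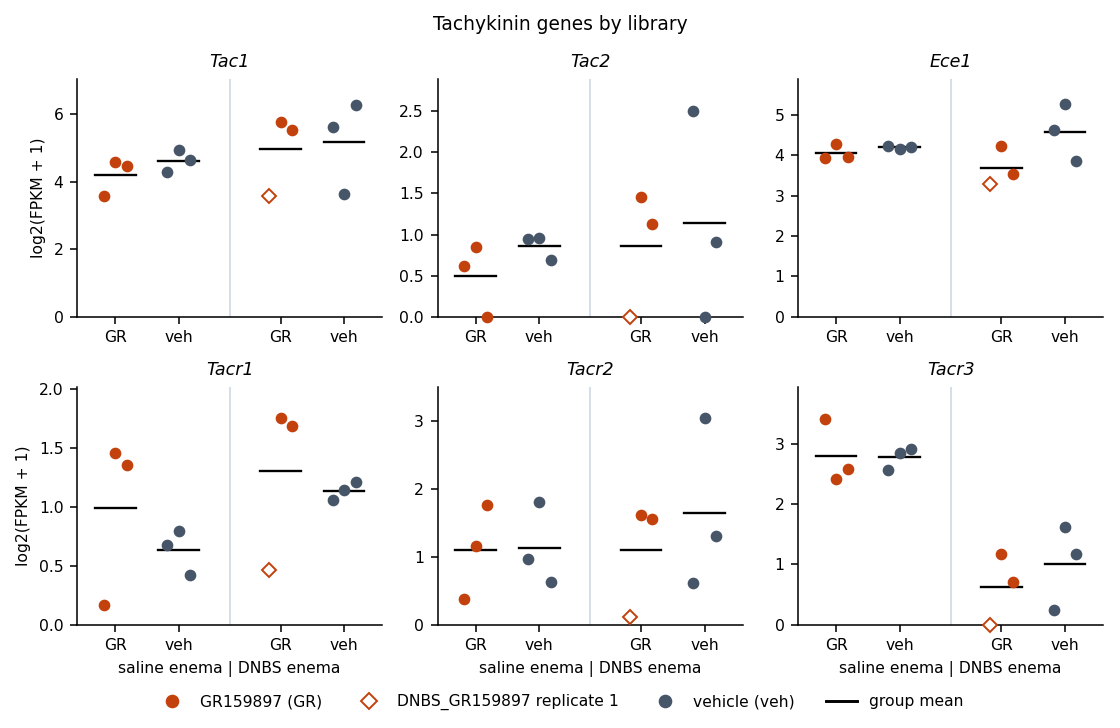
The 6 tachykinin genes past the filter in each library as log2(FPKM + 1), saline left and DNBS right, antagonist (GR) and vehicle (veh) in each, with a line at the mean of 3 libraries. Antagonist and vehicle points overlap for each gene, and Tacr3 is lower in the DNBS libraries of both arms.

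Downstream of the receptor, genes of Gq and calcium signalling lay close to 0, on a side that changed with the scaling. Of 22 members past the filter 0 were called, 10 were above 0 and 12 below. The median was −0.05 with 12 libraries and −0.04 with 11. It was 0.19 with equal annotated sums and −0.03 with the annotated share as a term. Plcb3, a phospholipase C activated by Gq, had a log2 difference of 0.60 ± 0.37, which was 0.28 ± 0.26 without DNBS_GR159897 replicate 1, where it reached 37.6 FPKM. Gna11, a Gq family alpha subunit, was at 24.5, 11.2 and 27.0 FPKM in Saline_GR159897 and at 3.88, 6.12 and 5.74 FPKM in DNBS_GR159897. In vehicle it was at 23.8, 23.9 and 21.4 FPKM with saline and 15.35, 6.75 and 20.0 FPKM with DNBS. The DNBS libraries of the arms did not overlap for Gna11 (averaged difference −0.69 ± 0.35, unadjusted p = 0.0642). Every antagonist library lay below every vehicle library for 6.89% of all genes in DNBS mice.

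In all, 32 gene lists were described by counts and medians with no test of the list. Of these, 30 had members past the filter and 0 members were called in either fit. The median was below 0 in 24 lists and below that of all genes in 20 with 12 libraries. It was below 0 in 18 lists with 11. Directions of lists moved with the scaling: 16 of the 30 medians were below 0 when the annotated loci of each library had the same sum, 17 at the same upper quartile, and 14 with the annotated share as a term in the fit.

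The glial lists were low with 12 libraries and near the median of all genes with 11. Of 15 enteric glia markers 13 were below 0 with 12 libraries (median −0.55) and 8 with 11 (median −0.03). With 12 libraries the median was 0.13 with the annotated share as a term. It stayed below 0 with equal annotated sums (−0.47) and at the same upper quartile (−0.42). The calcium-binding protein gene S100b was at −0.90 on the log2 scale with 12 libraries and 0.07 with 11. Cryab was at −1.76 ± 0.97 with 12 libraries and −0.75 ± 0.48 with 11. Sox10 stayed low in DNBS mice without replicate 1: 4.63 and 6.79 FPKM in DNBS_GR159897, against 9.04, 184 and 127 FPKM in DNBS_Vehicle. Its difference there was −3.73 with 12 libraries and −3.23 with 11, but 1.14 in saline mice (averaged difference −0.80 ± 1.09 with 11). Within saline mice 4 of the 14 markers with values were below 0, and within DNBS mice all 15 with 12 libraries and 8 with 11, against 53.1%, 62.7% and 55.2% of all genes. On the other side stood 2 members. Kcna1, a potassium channel subunit, was at 85.1, 51.2 and 51.1 FPKM in Saline_GR159897, against 0.51, 44.3 and 4.09 FPKM in Saline_Vehicle. In DNBS mice Kcna1 was at 0, 13.1 and 14.8 FPKM with the antagonist and 6.23, 17.1 and 17.95 FPKM with vehicle, for an averaged difference of 0.99 ± 1.02 with 12 libraries and 1.80 ± 0.83 with 11. Gfra2, the neurturin receptor, was at 56.7, 36.5 and 35.3 FPKM in Saline_GR159897 and at 4.46, 8.75 and 38.7 FPKM in Saline_Vehicle (averaged difference 0.31 ± 0.77 with 12 libraries and 1.01 ± 0.56 with 11).

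Of the 11 myelin and Schwann-like genes 8 were below 0 (median −0.32 with 12 libraries, −0.07 with 11 and 0.10 with the annotated share as a term). With equal annotated sums that median was −0.37, and at the same upper quartile −0.28. Cnp, a phosphodiesterase of myelinating cells, had the smallest p in any glial list apart from Cxcl10. It was at 73.9, 12.1 and 18.4 FPKM in Saline_GR159897 and at 4.75, 3.31 and 54.9 FPKM in DNBS_GR159897, against 113, 92.3 and 121 FPKM in Saline_Vehicle and at 14.6, 70.5 and 31.7 FPKM in DNBS_Vehicle. In saline mice the arms did not overlap and in DNBS mice they did (averaged difference −1.80 ± 0.64, unadjusted p = 0.0138). Every antagonist library lay below every vehicle library for 4.18% of all genes in saline mice.

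Reactive glia genes, which mark the response of glia to injury, had 11 of 13 members below 0 with 12 libraries (median −0.56). With 11 libraries 6 of 13 were below 0 (median 0.01). With all 12 the median was 0.0066 with the annotated share as a term. It stayed below 0 with equal annotated sums (−0.47) and at the same upper quartile (−0.44). Within DNBS mice 11 members were below 0 with 12 libraries and with 11, and within saline mice 2 of the 12 with values were. Gfap, the glial intermediate filament, was at 323, 89.8 and 152 FPKM in Saline_GR159897 and at 0.90, 79.7 and 201 FPKM in DNBS_GR159897, against 184, 289 and 236 FPKM in DNBS_Vehicle. It is blank in the 3 Saline_Vehicle libraries, so its fit dropped these and its difference of −2.90 ± 1.40 rests on the DNBS mice. Without DNBS_GR159897 replicate 1 it was −0.87 ± 0.58. Timp1, an inhibitor of matrix proteases, was at 23.4, 212 and 332.5 FPKM in DNBS_GR159897 and 560, 430 and 384 FPKM in DNBS_Vehicle. These did not overlap, as for 6.89% of genes lower with the antagonist in DNBS mice, while the saline libraries overlapped. The averaged difference of Timp1 was −0.74 ± 0.70 with 12 libraries and −0.10 ± 0.47 with 11. The 2 members above 0 with 12 libraries were Steap4 (0.55 ± 0.265) and Lcn2 (0.11 ± 0.77).

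**Figure D4:**
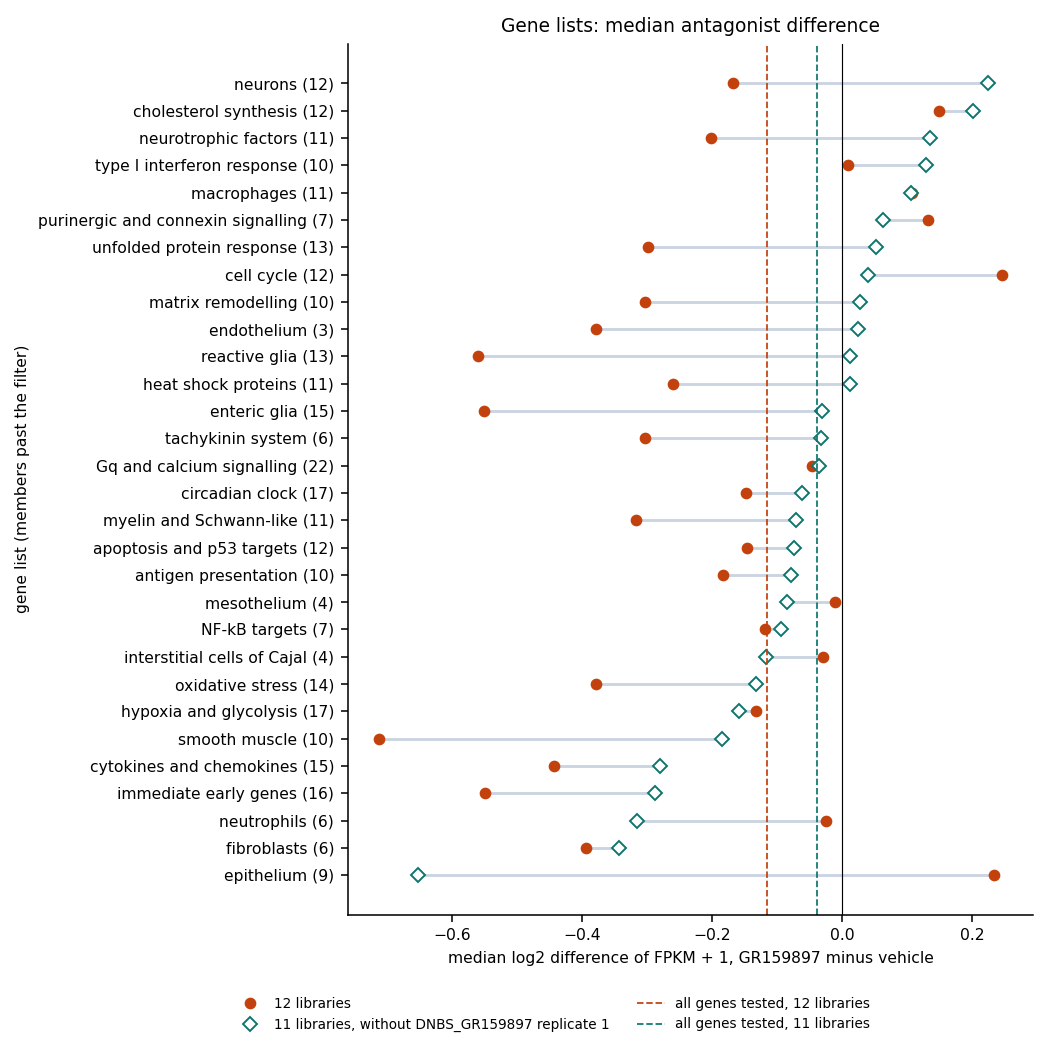
Median log2 difference of FPKM + 1, antagonist minus vehicle, for each gene list with its number of members past the filter, with 12 libraries (filled) and with 11 (open). Dashed lines mark the medians of all genes at −0.12 and −0.04, and the epithelial, reactive glia, smooth muscle and enteric glia medians move most between the fits.

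Inflammatory lists had no called member. Cytokines and chemokines had 11 of 15 members below 0 with 12 libraries (median −0.44) and 12 of 15 with 11 (median −0.28). Cxcl10, a chemokine induced by interferon, was at 7.21, 1.43 and 8.45 FPKM in Saline_GR159897 and at 1.80, 2.36 and 6.32 FPKM in DNBS_GR159897, against 14.1, 21.6 and 3.02 FPKM in Saline_Vehicle and at 17.0, 16.5 and 8.66 FPKM in DNBS_Vehicle. The DNBS libraries of the arms did not overlap (averaged difference −1.39 ± 0.48, unadjusted p = 0.0124). In DNBS mice 6.89% of genes had every antagonist library below every vehicle library. Cxcl12, a chemokine of stromal cells, had a difference of −1.14 ± 0.47 with 12 libraries and −0.82 ± 0.42 with 11. Cxcl5, above, stood on the other side.

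Immediate early genes, which respond within minutes to calcium and growth factor signals, had 14 of 16 members below 0 with 12 libraries (median −0.55) and 12 of 16 with 11 (median −0.29). Ier3, a stress-induced survival protein, was at 21.1, 21.8 and 63.4 FPKM in Saline_GR159897 and at 30.1, 231 and 24.1 FPKM in DNBS_GR159897, against 34.1, 58.5 and 34.7 FPKM in Saline_Vehicle and at 288, 185 and 384 FPKM in DNBS_Vehicle. In DNBS_GR159897, 2 of 3 libraries were below every library of DNBS_Vehicle (averaged difference −1.34 ± 0.59). Dusp6, a phosphatase of the Erk kinases, was at 6.39, 6.92 and 1.34 FPKM in DNBS_GR159897 and 17.96, 16.1 and 11.2 FPKM in DNBS_Vehicle, with an averaged difference of −0.83 ± 0.40.

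Targets of NF-kB had a median of −0.12, antigen presentation genes −0.18 and type I interferon response genes 0.01 with 12 libraries. Below 0 were 4 of 7, 7 of 10 and 5 of 10 of their members, and the NF-kB median was 0.02 with equal annotated sums. Beta-2 microglobulin (B2m) had a difference of −1.51 ± 0.80 with 12 libraries and −0.85 ± 0.59 with 11. H2-Aa, a class II chain of antigen-presenting cells, was at 0.77 ± 0.52 with 12 libraries. The class II genes H2-Ab1 (−0.07 ± 0.85) and H2-Eb1 (−0.25 ± 0.86) were below 0, so class II genes had no common direction.

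Stress and metabolic lists were spread around the median of all genes. Hypoxia and glycolysis genes had 10 of 17 members below 0 (median −0.13 with 12 libraries, −0.16 with 11). The median was 0.09 with equal annotated sums and −0.095 with the annotated share as a term. Bnip3 stood far from the rest of its list. The next largest lower differences were those of the glycolytic enzymes Aldoa (−0.88 ± 0.51, and −0.51 ± 0.37 with 11 libraries) and Gapdh (−0.70 ± 0.34), while Ldha was at −0.09 and Pgk1 at −0.20, and at 0.0087 and −0.0100 with 11. Cholesterol synthesis genes had 10 of 12 members above 0 with 12 libraries (median 0.15) and with 11 (median 0.20), and 11 of the 12 were above 0 in saline mice, against 46.6% of all genes. In DNBS mice 7 of the 12 were below 0 with 12 libraries (median −0.09) and 6 with 11. Cyp51, the sterol demethylase of the pathway, was at 20.4, 7.56 and 6.23 FPKM in Saline_GR159897 and at 5.59, 13.2 and 10.8 FPKM in DNBS_GR159897. In vehicle it was at 5.72, 8.41 and 3.97 FPKM with saline and 1.92, 8.74 and 6.64 FPKM with DNBS. The arms of Cyp51 overlapped in both enemas (0.74 ± 0.38, unadjusted p = 0.0737).

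Circadian clock genes had 10 of 17 members below 0 (median −0.15). The median was 0.05 with equal annotated sums and −0.085 with the annotated share as a term. Ciart, a repressor of the clock, was at 0.41, 0.35 and 1.47 FPKM in Saline_GR159897 and at 8.40, 6.44 and 5.06 FPKM in Saline_Vehicle. These did not overlap, as for 4.18% of genes lower with the antagonist in saline mice. In DNBS mice Ciart was at 2.07, 1.32 and 1.73 FPKM with the antagonist and 3.83, 0.76 and 1.05 FPKM with vehicle. The interaction of Ciart had an unadjusted p of 0.00249 and an adjusted p of 0.957. Nr1d1, another repressor, was at −0.84 ± 0.43 (−0.56 ± 0.37 with 11 libraries), and Arntl, the activator they act on, at 0.61 ± 0.36. The labels give no hour of collection, and its part in these values was not tested.

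The remaining lists can be given by their counts. Below 0 with 12 libraries were 3 of 7 purinergic and connexin genes, 8 of 11 neurotrophic factor genes, 12 of 14 oxidative stress genes, 11 of 12 apoptosis and p53 targets, 9 of 10 matrix remodelling genes, 9 of 13 genes of the unfolded protein response, 8 of 11 heat shock genes and 4 of 12 cell cycle genes. With 11 libraries these counts were 2, 4, 8, 8, 3, 5, 5 and 6. With the annotated share as a term the medians of the neurotrophic, oxidative stress, matrix, unfolded protein and heat shock lists were above 0, and that of the cell cycle list was below 0. With equal annotated sums and at the same upper quartile each of these medians kept the sign it had without rescaling. With equal annotated sums the matrix (−0.0085) and heat shock (−0.016) medians were close to 0. Atf4, the transcription factor of the integrated stress response, was at 67.0, 95.9 and 17.0 FPKM in Saline_GR159897 and at 160, 258 and 25.7 FPKM in DNBS_GR159897. In vehicle Atf4 was at 13.2, 77.4 and 17.7 FPKM with saline and 18.2, 11.7 and 43.3 FPKM with DNBS, and the arms overlapped in both enemas (1.53 ± 0.67 with 12 libraries and 1.315 ± 0.71 with 11). Other members of its list, such as Herpud1 at −0.88 ± 0.45 and Asns at −0.65 ± 0.39, lay on the other side, at −0.49 ± 0.30 and −0.39 ± 0.34 with 11 libraries.

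Marker genes of other cell types were measured too, and their summed FPKM moved with the arms by amounts that did not pass the test. In bulk RNA, fewer cells of a type and less RNA per cell cannot be told apart. The fibroblast sum had the lowest p: 56.5, 45.2 and 61.1 FPKM in Saline_GR159897 and at 34.2, 69.3 and 77.0 FPKM in DNBS_GR159897, against 85.4, 77.6 and 84.5 FPKM in Saline_Vehicle and at 80.1, 94.5 and 72.6 FPKM in DNBS_Vehicle. The arms did not overlap in saline mice. The difference in log2 of the sum was −0.56 with 12 libraries (exact permutation test within enemas, two-sided, p = 0.01, 0.12 adjusted over the lists) and −0.38 with 11 (exact permutation p = 0.02, 0.24 adjusted). With equal annotated sums it was −0.32 with 12 libraries (exact permutation, adjusted p = 0.6). The smallest p these permutations allow is 0.005 with 12 libraries. All 6 fibroblast genes past the filter were below 0 in both fits, with Lum, a collagen-binding proteoglycan, at −1.12 ± 0.47 and Dcn, another, at −0.78 ± 0.46. With 11 libraries Lum was at −0.99 ± 0.49 and Dcn at −0.39 ± 0.34, and Dcn was then at 0.52 within DNBS mice. Meox2 and Cxcl12, described above, were on the lower side too, and the part of the fibroblast sum in them was not tested.

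The enteric glia sum was at 2868, 1222 and 1704 FPKM in Saline_GR159897 and at 22.2, 468 and 975.5 FPKM in DNBS_GR159897, against 1592, 1251 and 2054 FPKM in Saline_Vehicle and at 1377, 1191 and 1823 FPKM in DNBS_Vehicle. Gfap, blank in Saline_Vehicle, is not part of this sum. All 3 DNBS_GR159897 libraries were below every DNBS_Vehicle library, with replicate 1 far below, and the saline libraries overlapped. Of the DNBS_Vehicle sums, the list member Cryab alone supplied 919, 233 and 1284 FPKM. Its part of the DNBS_GR159897 sums was 3.75, 137 and 444 FPKM. With Cryab taken out of both sums, DNBS_GR159897 replicate 3 lies above DNBS_Vehicle replicate 1, so the separation is not one of the whole list. A sum without Cryab was not tested. The log2 difference of the enteric glia sum was −1.27 with 12 libraries and −0.45 with 11 (exact permutation p = 0.17 and 0.275, adjusted p = 0.408 and 0.855). The smooth muscle sum ranged from 313 to 3997 FPKM with the antagonist and from 2412 to 6881 FPKM with vehicle (log2 difference −0.89, exact permutation p = 0.17), and without DNBS_GR159897 replicate 1, at 313 FPKM, the difference was −0.31 (exact permutation p = 0.385). The epithelial sum was at 1766 FPKM in DNBS_GR159897 replicate 1, between 8.68 and 31.9 FPKM in the other antagonist libraries and between 0.43 and 100 FPKM with vehicle. The neutrophil sum ranged from 0.90 to 261 FPKM with the antagonist and from 0.37 to 580 FPKM with vehicle. Lymphocyte genes had no member past the filter, and mast cell genes had no row of their own. The share of summed FPKM on annotated loci averaged 65.4% ± 24.7 with the antagonist and 79.7% ± 14.0 with vehicle (SD, n = 6 each, exact permutation p = 0.125), and its part in the lower values was not tested.

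**Figure D5:**
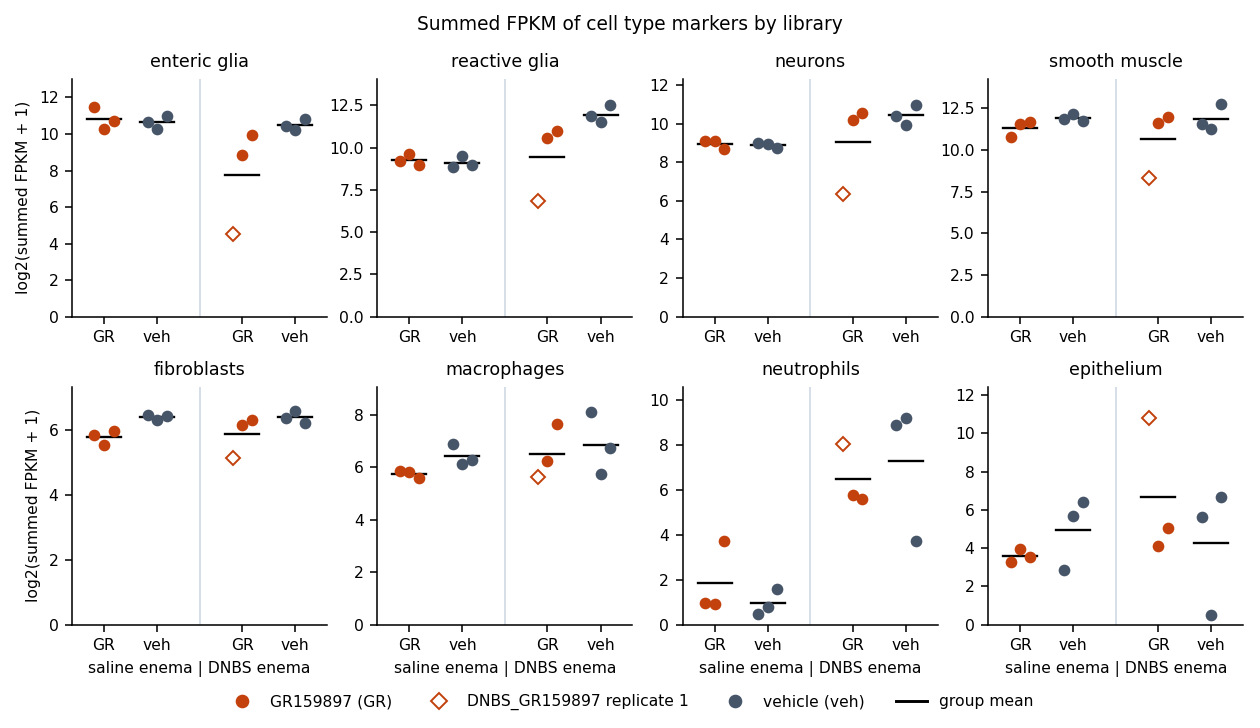
Summed FPKM of marker lists in each library as log2(sum + 1), saline left and DNBS right, antagonist (GR) and vehicle (veh) in each, with a line at the mean of 3 libraries. The open diamond, DNBS_GR159897 replicate 1, is lowest for glia, neurons, smooth muscle and fibroblasts and highest for epithelium.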

How the data were processed

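Ribosome-bound RNA of 12 libraries was compared between 6 given GR159897 and 6 given vehicle. The deposited table holds FPKM values with 2 decimals per assembled locus and library, normalised by the authors to mapped fragments and transcript length. Per the submitters' processing notes the tools were HISAT2 2.0, StringTie 1.3, cutadapt 1.10 and FastQC 0.10.1, whose order is not stated there, and no source used here gives the genome build. FPKM keeps no counts, whole reads could not be recovered, and the depth per library is unknown.

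Of 99547 loci, 24432 hold an annotated transcript. The locus with the highest mean was kept per symbol (24394 symbols), and the 12778 genes that reached 1 FPKM in 3 or more libraries were tested as log2(FPKM + 1) without rescaling. A log2 difference on this scale understates the difference of low genes. The additive model (enema and drug, no sex term) was fitted in R 4.3.3 using limma 3.58.1 (prior variance trended and robust). Two-sided p-values were adjusted over all genes after Benjamini and Hochberg, and the threshold was 0.05. The fit was repeated without DNBS_GR159897 replicate 1 on the same genes, and with 1 coefficient per group for differences within each enema and the interaction. The procedure was tested on simulated data. Marker sums and shares were compared by exact permutation of the drug labels within enemas (400 permutations with 12 libraries, 200 with 11). Alternatives varied the offset, filter, covariates, scaling, library weights, prior, duplicate rows and the libraries included.

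The named genes were, in each direction, the 12 with the smallest p with 12 libraries and the 8 with the smallest p with 11, apart from predicted, merged, pseudogene and blank rows. Added to these were the measured tachykinin genes. From each list described, the 2 members with the smallest p in each direction were drawn up too, and not all of these are given above. Other list members are given where they complete a pathway. The members and the 32 lists were chosen with earlier results of these data known. Positions come from GENCODE (GRCm38) through transcript identifiers, and the promoter from RefSeq (GRCm38.p6). Python 3.11.15, pandas 2.3.3, numpy 2.4.6 and matplotlib 3.10.9 were used.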

Additional observations from a re-analysis of the deposited data

Results flagged for a closer look

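A library far from the others of its arm was seen in 8 cases, and each arm mixes both enemas. Chance gives about 1 in 20 groups such a library. The number of groups searched is not given here, so the 8 cases are not weighed against that share. For marker sums, on the scale of log2 of summed FPKM + 1, DNBS_GR159897 replicate 1 was lowest of the antagonist libraries for smooth muscle at 8.29 and highest for epithelium at 10.8, and DNBS_GR159897 replicate 3 was highest for macrophages at 7.65. For single genes, on the scale of log2(FPKM + 1), Dus2 was lowest in DNBS_GR159897 replicate 1 at 1.37 and Lysmd4 highest in Saline_GR159897 replicate 3 at 1.06 among antagonist libraries. Among vehicle libraries AA474408 was highest in DNBS_Vehicle replicate 2 at 0.19, Kcna2 lowest in DNBS_Vehicle replicate 3 at 2.62 and Tmem109 lowest in Saline_Vehicle replicate 3 at 3.10.

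For Gas1 the antagonist difference in DNBS mice minus that in saline mice was 3.67 on the log2 scale of FPKM + 1 without DNBS_GR159897 replicate 1, past the limma threshold. The remaining DNBS_GR159897 libraries were at 10.9 and 12.7 FPKM and the 9 libraries of the other groups were listed at 0. Gas1 passed the filter on low values through DNBS_GR159897 alone and has no spread in the other groups, so this is a description and its p is not read. With 12 libraries the adjusted p of this interaction was 0.957.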

How the results depend on the processing

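No gene was called under any of the 13 alternatives and 12 single-library omissions with 12 libraries. The genes with an unadjusted p under 0.05 numbered 325 to 838 under the alternatives and 356 to 934 in the omissions. With 11 libraries 1 gene, Gas1, was called with 1 coefficient per group and 0 under the other 12 alternatives and 11 omissions. Gas1 passed the filter on low values through DNBS_GR159897 alone, so its call is tied to its selection. Signs reversed for Tac1 (0.26), Tac2 (0.056) and Tacr3 (0.016) with the annotated share as a term, and for Tacr2 with library weights (0.20) and without DNBS_Vehicle replicate 2 (0.040), where omissions of single libraries gave −0.50 to 0.040. Over all of its alternatives and omissions the log2 difference of Bnip3 lay between −2.16 and −1.70 and that of Spata2 between 1.32 and 3.20, with a lowest adjusted p of 0.501 and 0.468.

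The difference in annotated share ranged from −18.7 to −8.04 percentage points when single libraries were left out, and had an exact permutation p of 0.045 without Saline_GR159897 replicate 1 (−17.4). The difference in genes at 1 FPKM or more ranged from −117 to 96.4. For log2 marker sums these ranges were −0.97 to 0.11 for myelin and Schwann-like genes, −1.04 to 0.0071 for neurons, −0.83 to 0.53 for neutrophils, −1.22 to −0.31 for smooth muscle, −0.53 to 1.13 for epithelium, −0.44 to 0.10 for endothelium and −0.047 to 1.19 for mesothelium. The endothelial sum was also above 0, at 0.033, with equal annotated sums. The cause was not tested.

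Replicate numbers did not pair the samples: 18 same-numbered pairs had correlations of −0.09 to 0.20. With the replicate block 0 genes were called, and 509 and 402 had an unadjusted p under 0.05 with 12 and 11 libraries.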
